A study of Mus musculus with 14 samples.

Results

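Chromatin immunoprecipitation of H3K9me3 from cells that overexpressed miR-93-5p gave 25879 peaks, and 14785 of these (57.1%) overlapped no peak of the control list by even 1 bp. Those 14785 regions, the H3K9me3 peaks of miR-93-5p alone, are described here. The other 11094 peaks of the miR-93-5p list (42.9%) overlapped a control peak and are called shared. The members were chosen by the positions of peaks in the 2 H3K9me3 lists, so their number, width and score are a description and carry no test. All cells were a mouse line labelled LEPC, of strain C57BL/6, taken at 3 passages and grown in serum-containing medium. The control carried scr, the overexpression group carried miR-93-5p, and a further RNA-seq group overexpressed the microRNA with a mutation (mutant below). H3K9me3 (antibody Abcam ab8898), H3K27me3 and H3K4me3 were each profiled in scr and miR-93-5p cells, and RNA-seq covered scr, miR-93-5p and mutant. Each mark and each RNA-seq condition had 1 library. No replicate error, test between conditions or p-value could therefore be given, and every difference below is one between libraries.

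Trimethylation of lysine 9 on histone H3 marks compact, transcriptionally quiet chromatin. It is deposited by SUV39H1, SUV39H2 and SETDB1 and is bound by HP1 proteins, which help to pack the marked nucleosomes. SETDB1 is brought to DNA by TRIM28 and the large family of KRAB zinc finger proteins, which silence transposable elements, and the mark also lies over clusters of zinc finger genes themselves. miR-93-5p belongs to the miR-17 family of microRNAs, which lower the stability or translation of mRNAs through pairing of their seed with target sites. The overexpressed microRNA is shown first, with its seed (bases 2 to 8 from the 5′ end) in capitals, from RefSeq.
mmu-miR-93-5p: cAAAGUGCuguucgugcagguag

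By their listed mm9 loci, 9 protein-coding genes lay whole under a single member. Of these, 3 (Cldn3, Ifne and Tssk6) had both 150 bases or more of the member beyond each end of the locus and a single entry in the RefSeq promoter table. The 150 bases before the start of those 3 genes are shown to give the reader the kind of sequence the members reach at a gene start. The letters are RefSeq sequence of build GRCm38.p6, whereas peaks and gene loci are in mm9, and the RefSeq start may differ from the end of the mm9 locus. CpG dinucleotides, the sites of DNA methylation, are in capitals. Cldn3, a tight junction protein, lay under the 2008 bp member chr5:135461491-135463498 (score 130.57), and its bases are chr5:134986064-134986213 on the plus strand of GRCm38.p6. Ifne, an interferon of epithelia, lay under the 1187 bp member chr4:88525210-88526396 (score 87.78), and its bases are chr4:88880202-88880351 on the minus strand. Tssk6, a testis-specific kinase, lay under the 2006 bp member chr8:72425568-72427573 (score 182.93), and its bases are chr8:69902034-69902183 on the plus strand.
Cldn3: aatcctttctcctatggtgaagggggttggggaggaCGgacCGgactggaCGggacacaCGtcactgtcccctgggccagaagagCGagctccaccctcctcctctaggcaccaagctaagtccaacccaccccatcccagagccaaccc
Ifne: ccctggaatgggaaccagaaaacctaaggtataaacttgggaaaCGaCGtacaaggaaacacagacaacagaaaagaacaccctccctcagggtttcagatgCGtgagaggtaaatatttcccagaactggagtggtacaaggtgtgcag
Tssk6: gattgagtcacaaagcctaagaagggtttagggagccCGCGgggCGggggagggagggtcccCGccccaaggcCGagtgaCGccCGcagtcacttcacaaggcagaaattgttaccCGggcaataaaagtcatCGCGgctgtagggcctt

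The stretch held 5 CpG in Cldn3, 3 in Ifne and 10 in Tssk6, counted as CG on the strand shown, which is the same number on the other strand. Over the 27025 RefSeq promoters of the same length the median was 4, and the middle 50% of promoters held between 1 and 11. The 3 sequences thus lay within the usual range of mouse promoters, with Tssk6 near its upper end. None of the 3 genes had a scr H3K9me3 peak on its locus.

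The scr H3K9me3 list held 15888 peaks over 21.6 Mb and the miR-93-5p list 25879 peaks over 39.2 Mb. Sequencing depth is not given in the files, and a region absent from a list was not called there, which does not give its signal. When the miR-93-5p list was shortened to its 15888 highest-scoring peaks, 6931 of them (43.6%) overlapped no scr peak, and 6387 scr peaks (40.2%) overlapped none of them. In lists of equal length these counts come out close wherever most overlaps pair a single peak with a single peak, so their closeness is no result. The part of depth in the excess of members was not tested. Of the epithelial markers, Krt8 stood at 658, 230 and 283 FPKM (fragments per kilobase, scaled to library size) and Krt18 at 306, 200 and 253 FPKM, given in the order scr, miR-93-5p, mutant, which all triplets of levels below follow. Krt19 had no matched locus in scr and stood at 418 and 522 FPKM in the other libraries, and the adhesion gene Cdh1 stood at 30.7, 1.52 and 3.87 FPKM. Of 8 epithelial markers 6, 4 and 5 had a matched RNA locus in those libraries, with a summed level of 1004, 850 and 1064 FPKM. The scr sum lacks Krt19, which the other sums hold, so the sums are not over the same genes. Of the 3 measured in all libraries 2, Krt8 and Cdh1, were below scr by 2-fold or more in miR-93-5p by FPKM. By implied fragments, explained below, the log2 ratio over scr was -0.24 in Krt8, -2.98 in Cdh1 and -1.56 in Krt18. Of 6 mesenchymal markers only Vim had a matched locus, at 1061, 711 and 784 FPKM. No matched locus was found for 5 of 5 endothelial markers, and leukocyte markers summed to between 1.16 and 9.19 FPKM. Hepatocyte markers summed to 98.7, 20.3 and 58.4 FPKM, and the part of that difference in the H3K9me3 lists was not tested. In such bulk samples fewer cells of a type and less RNA per cell cannot be told apart.

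The members were mostly narrow peaks near the bottom of the score range. Their median width was 1086 bp, with 10% under 695 bp and 10% over 1862 bp, whereas shared peaks of the same list had a median of 1611 bp. Peaks of scr alone, 4401 in number, had a median of 886 bp. Members of 3 kb or more numbered 174 (1.18%), against 1333 (12.02%) of the shared peaks. The deposited score, a number the authors' peak caller gave each peak from 50 upward, had a median of 73.5 in the members and 135 in the shared peaks. Of the members 27.7% scored under 60, and 3813 (25.8%) scored 100 or more, against 66.9% of the shared peaks. The share of the miR-93-5p list without a scr overlap fell from 82.0% of peaks scoring under 60 to 1.65% of the 665 peaks scoring 500 or more. By width it fell from 78.8% under 1000 bp to 5.39% of the 297 peaks of 5000 bp or more.

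**Figure D1:**
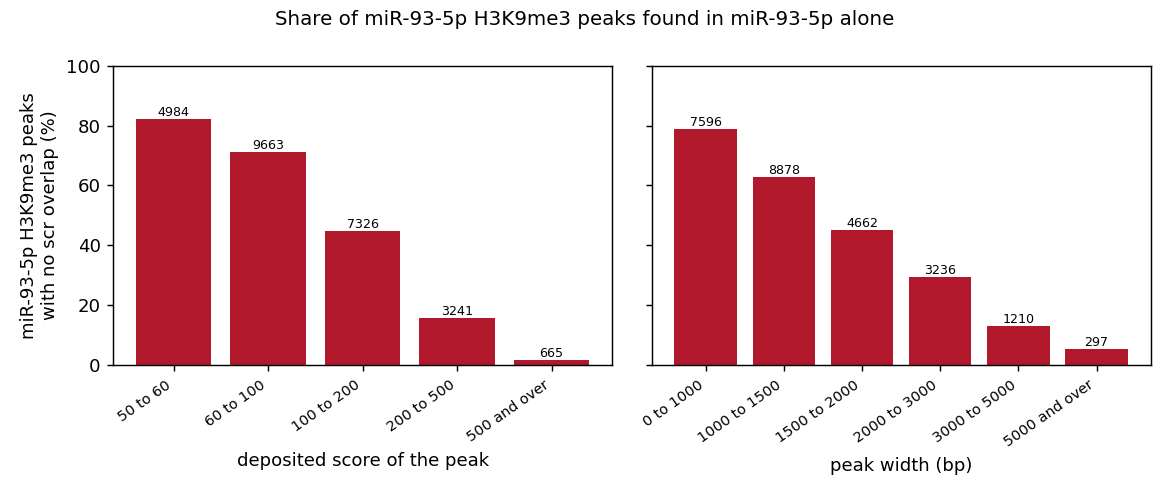
Percent of miR-93-5p H3K9me3 peaks that overlapped no scr peak (vertical axis), by deposited score (left) and by width in bp (right), with the number of peaks in the class above each bar. The share went down at each step, from 82.0% to 1.65% by score and from 78.8% to 5.39% by width.

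The threshold between a member and a shared peak was a single base. The closest members ended 1, 2 and 4 bp from a scr peak: chr6:90935474-90936622 (1149 bp, score 62.41), chr8:11610895-11611780 (886 bp, score 61.21) and chr13:6109799-6111060 (1262 bp, score 84.35). The peaks just outside overlapped a scr peak by 1, 2 and 2 bp, and were chr16:91079176-91079871 (696 bp, score 55.22), chr18:36625523-36626538 (1016 bp, score 56.85) and chr5:134775958-134777627 (1670 bp, score 97.61). Within 100 bp of a scr peak lay 121 members, and within 1000 bp lay 944. Among the shared peaks 86 overlapped by less than 100 bp and 1571 had less than 50% of their length under scr peaks.

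A small number of members were wide and high. The widest and highest-scoring was chr3:8977002-8985152, 8151 bp with a score of 930.89, inside Tpd52, a vesicle-trafficking protein. It ended 343 bp from a shared peak and 398 bp from the nearest scr peak, so it lay beside peaks that both lists held. The next in width was chr7:113390140-113397270, 7131 bp with a score of 198.4, 31286 bp from Gvin1 and 17096 bp from a shared peak. After it came chr15:102792649-102798783, 6135 bp with a score of 215.18, in the Hoxc cluster. A 5599 bp member, chr3:95161447-95167045 (score 585), lay 323 bp from Setdb1, the gene of an H3K9 methylase, whose locus also carried 1.20 kb of shared peak. A 6082 bp member in the ion channel gene Trpm8 scored only 63.67, so width and score did not always go together. Other members among the 8 highest scores were chr15:102805159-102808351 at Hoxc9 (715.28), chr7:117795781-117799391 (628), chr9:20195187-20199748 near Zfp560 (604) and chr15:30101391-30104299 in Ctnnd2, a cell adhesion gene (602).

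Most members lay in the neighbourhood of a shared peak and did not touch it. The distance from a member to the nearest shared peak of the miR-93-5p list had a median of 35.3 kb, and the middle 50% of members lay between 9.37 and 115 kb. Within 1 kb of a shared peak were 6.00% of members, within 10 kb 25.9%, and within 100 kb 72.3%. At the other end, 325 members (2.20%) were more than 1 Mb away. Peaks of scr alone lay a median of 43.8 kb from the nearest shared peak of their list, and shared peaks lay 21.1 kb from one another. Members varied little with this distance: their median width was 1112 bp within 1 kb, 1181 bp from 1 to 10 kb, and 975 bp beyond 100 kb. The median score went from 76.5 within 1 kb to 69.6 beyond 100 kb.

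Members also formed groups of their own. When peaks of the miR-93-5p list with gaps of 10 kb or less were joined, 4301 members (29.1%) fell in a block with a shared peak, 2835 (19.2%) in a block of members only, and 7649 (51.7%) stood alone. Runs of members, also joined over gaps of 10 kb or less, of 2 or more took in 5142 members (34.8%), and 114 runs had at least 5. Of the 3 runs with 14 members each, chr16:9086848-9165794 (26.5 kb under members) and chr6:62729640-62798516 (23.6 kb) touched no coding gene. The third, chr16:25702186-25764780, held 18.04 kb under members within Trp63, the gene of the p53 relative p63, which specifies stratified epithelium. Runs of 11 lay in Cabcoco1 on chromosome 10 and Impg1, a retinal matrix gene, on chromosome 9.

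The members were spread over 20 chromosomes, at 5.603 per Mb over all, beside 4.20 per Mb for shared peaks. The highest density was 9.54 per Mb on chromosome 13 and the lowest 1.04 per Mb on chromosome X. Chromosomes 4, 12, 14 and X, picked out after their values were seen, had 1.04 to 3.74 members per Mb, and the others 4.44 to 9.54. Shared peaks were sparse on the same chromosomes, at 0.408 to 1.78 per Mb against 3.46 to 8.72. There the share of the miR-93-5p list that was alone was 67.7 to 71.8%, against 46.9 to 62.1% on the others. miR-93-5p H3K27me3 peaks were also fewer on those 4 chromosomes, at 1.28 to 5.33 per Mb against 10.98 to 43.2. H3K4me3 peaks ranged from 2.77 to 6.30 per Mb there and from 4.85 to 11.1 elsewhere, and coding genes from 4.55 to 7.20 and from 4.80 to 11.9 per Mb. What sets the low density on those chromosomes was not tested.

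**Figure D2:**
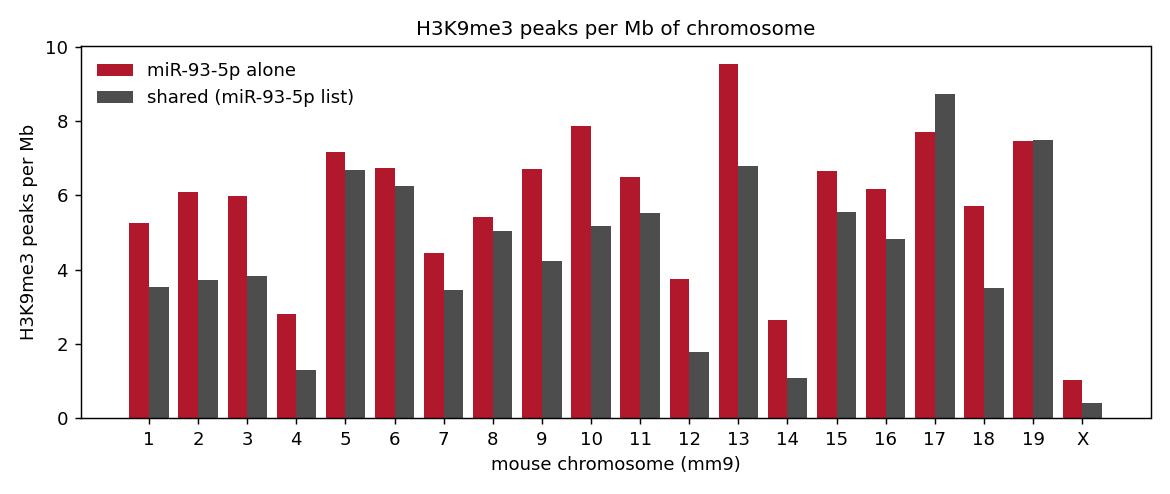
H3K9me3 peaks per Mb (vertical axis) on each mouse chromosome in the miR-93-5p list, red bars for the peaks of miR-93-5p alone and grey bars for shared peaks. Chromosomes 4, 12, 14 and X are low in both, and on chromosome 17 shared peaks (8.72 per Mb) outnumber the members (7.71 per Mb).

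The members were mainly intergenic. A gene locus of any class was overlapped by 4856 members (32.8%, exact Clopper-Pearson 95% interval 32.1 to 33.6%, which covers the counting of peaks only), and 9929 (67.2%) overlapped none. Gene loci covered 37.6% of the chromosomes, and 32.2% of the bases under members lay in them. Shared peaks were on a gene locus in 37.0% and peaks of scr alone in 36.4%. Intergenic members lay a median of 27.5 kb from the nearest gene locus, and 1765 of them (17.8%) were more than 100 kb away. Protein-coding loci were overlapped by 28.6% of members. In 3905 member and gene pairs (91.9%) the member lay inside the coding locus, in 334 (7.86%) it crossed an end, and in 9 (0.212%) it held the whole locus. Shared peaks crossed an end in 15.6% of pairs and held the whole locus in 0.979%. The files give no strand for these loci, so which end is the promoter is not known.

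A member lay on 2470 of 18510 coding loci, on 190 of 1730 long noncoding RNA loci (10.98%) and on 49 of 3669 pseudogene loci (1.34%). Of 498 microRNA loci 4 carried a member. Among the 18479 coding genes with a single symbol, 2466 carried a member, which is 13.3% of them, and 12.2% carried a shared peak. Genes with a member were long, with a median locus of 82.2 kb against 18.4 kb over all coding genes. Of coding genes under 20 kb 3.796% carried a member, and of those over 100 kb 49.2%. Shares for a gene class are therefore read beside its median locus length.

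Zinc finger genes named Zfp, Zkscan, Zscan or Zbtb, a class that H3K9me3 is known to cover, carried members in 105 of 413 (25.4%), with a median locus of 15.6 kb. Shared peaks lay on 26.4% of them. Those numbered Zfp700 and above carried members in 33 of 106 (31.1%). Within one length class, under 20 kb, members lay on 19.01% of the zinc finger genes and on 3.796% of all coding genes. Of the 105 genes, 48 had no scr H3K9me3 peak on the locus. Zfp1 had 8.26 kb under 3 members, 30.0% of its locus, with no shared peak. Zfp959 had 3.60 kb under 3 members, 56.2% of its locus, also with no shared peak. Zfp809, which directs silencing of retroviral sequences, had 4.85 kb under members beside 9.24 kb under shared peaks. How reads that match several near-identical zinc finger genes were placed is not given in the sources used here.

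Glutamate and GABA receptor genes are long, potassium channel genes much less so, and few of either passed the RNA filter explained below. Of all coding genes 11.4% carried a member at 20 to 50 kb, 23.5% at 50 to 100 kb and 49.2% over 100 kb. Genes of glutamate and GABA receptors carried members in 12 of 42 (28.6%) and shared peaks in 16.7%, with a median locus of 91.3 kb. Potassium channel genes carried members in 22 of 92 (23.9%) and shared peaks in 18.5%, with a median locus of 28.1 kb. Kcnh7, a voltage-gated potassium channel, held 34 members with 36.9 kb, beside 6.56 kb of shared peaks. Grm3, a metabotropic glutamate receptor, held 9 members with 9.58 kb, and Grin2a, an NMDA receptor subunit, 7 members with 6.59 kb and no shared peak. Of the 92 potassium channel genes 3 passed the RNA filter and of the 42 receptor genes 1 did, and 0 of the genes under members in either list did.

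Cadherin genes carried members in 7 of 21 (33.3%), with a median locus of 139 kb, below the 49.2% of all coding genes over 100 kb. Hox genes, which set positional identity, carried members in 9 of 27 (33.3%) at a median locus of only 3.53 kb, and 8 of these 9 had no scr H3K9me3 peak. Imprinted genes went the other way, with members on 7 of 31 (22.6%) and shared peaks on 16 of 31 (51.6%). Igf2, an imprinted growth factor, had 1.84 kb under a member and no shared peak, and Grb10, an imprinted adaptor protein, had 7.87 kb under members beside 29.0 kb under shared peaks. Solute carrier genes stood near the background, with members on 50 of 371 (13.5%).

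Several large families of mostly short genes had few members. Vomeronasal receptor genes had none in 184, olfactory receptor genes 2 in 842 (0.238%), defensin genes 1 in 57, keratin genes 1 in 53 and cytochrome P450 genes 4 in 94. Shared peaks were also few on them, at 1 in 842 olfactory receptor genes and 5 in 94 cytochrome P450 genes. Median loci ran from 0.978 kb in olfactory receptor genes over 2.73 kb in defensin and 6.59 kb in keratin genes to 21.5 kb in cytochrome P450 genes. Of all coding genes under 20 kb 3.796% carried a member. At 20 to 50 kb, where the cytochrome P450 median lies, 11.4% did, against 4.26% of the cytochrome P450 genes. Keratin (1.89%) and defensin (1.75%) genes thus stood not far from short genes in general. Serpin genes, with a median locus of 10.9 kb, had members on 4 of 58 (6.90%) and shared peaks on 0 of 58. These lists were chosen with earlier results of these data known, and no list was tested.

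**Figure D3:**
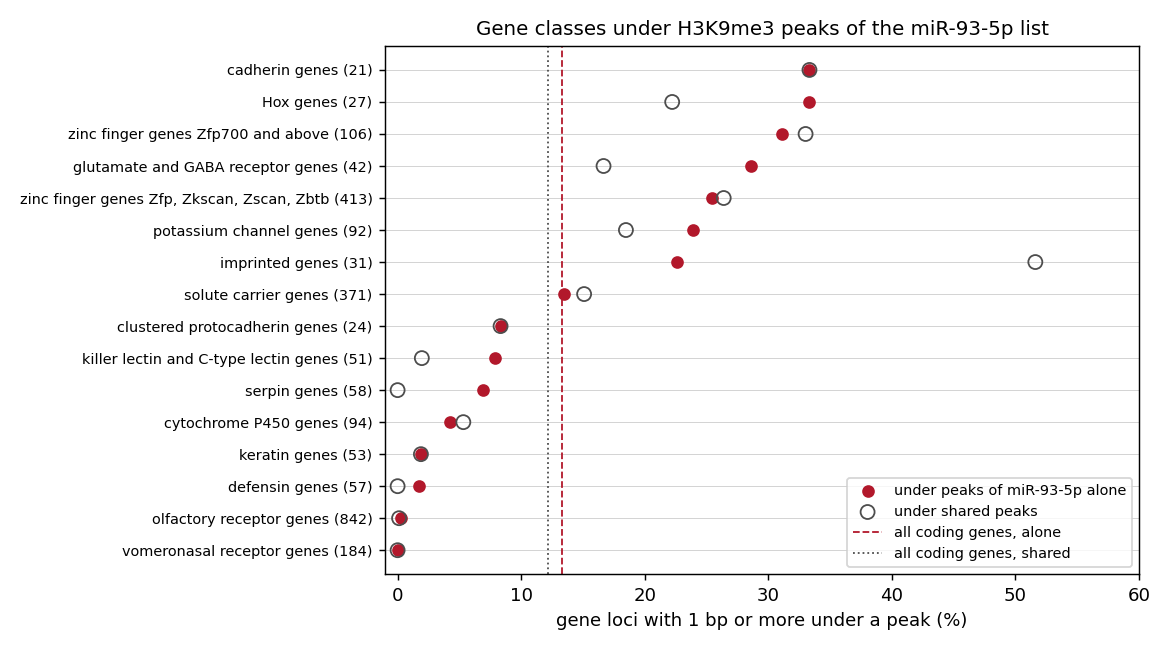
Percent of the gene loci of each class, with the number of loci in brackets, under peaks of miR-93-5p alone (red points) or shared peaks (open circles), with the shares over all coding genes as a dashed line (13.3%) and a dotted line (12.2%). Hox, glutamate and GABA receptor and potassium channel genes lie to the right of the dashed line with more members than shared peaks, imprinted genes have more shared peaks, and receptor families of smell lie near 0.

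The genes with the most sequence under members were long, and all 10 also held shared peaks. Pde4d, a cAMP phosphodiesterase at chr13:109240141-110743669, had 29 members with 43.1 kb beside 21.4 kb of shared peaks. Cntnap2, a neuronal adhesion protein at chr6:45010059-47251368, had 31 members with 42.3 kb beside 19.5 kb. Kcnh7, at chr2:62531470-63022344, came next. Shroom3, a regulator of epithelial cell shape, had 35.9 kb under 19 members, which was less than its 38.3 kb of shared peaks. Cped1 (27.4 kb), Trp63 (25.8 kb), the synaptic gene Syt1 (21.8 kb), the oxidation resistance gene Oxr1 (20.7 kb), Fry (19.8 kb) and the basement membrane gene Fras1 (17.7 kb) followed. In these 10 genes the members covered between 1.89% (Cntnap2) and 12.7% (Shroom3) of the locus. Of coding genes 367, or 1.99%, held 3 or more members.

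In 33 coding genes, which is 0.179% of them, members covered 50% or more of the locus, and the median locus was 1.90 kb. None of the 33 had a scr or a shared H3K9me3 peak on the locus. Covered over the whole listed locus were Cebpd, Cldn3, Dusp21, Fbll1, Gm10272, Ifne, Kcng2, Krtap12-1 and Tssk6. Shares are of the locus as listed, which was 0.706 kb for Kcng2 and 1.95 kb for Chrm3. Whether a listed locus spans the full gene was not checked. Transcription factor genes among the others, grouped after the list was seen, were Foxe3 (98.8% of the locus), Sox3 (80.6%), Gsc (72.6%), Hoxc11 (68.5%), Pou4f1 (59.5%) and Nkx2-9 (53.9%). Id4, a transcriptional regulator, was covered to 51.1%. Genes of skin and hair structure among them were Krtap1-5 (68.6%), Lor (57.1%) and Sprr1b (55.6%). Htr1b, a serotonin receptor, was covered to 98.0%, and the muscarinic receptor gene Chrm3 to 81.0%. Of the 33 genes 5 (15.2%) passed the RNA filter explained below, against 29.3% of all coding genes under 10 kb. Of the 135 genes with 50% or more of the locus under shared peaks 21.5% passed. The median locus was 4.17 kb in the genes under 10 kb and 3.19 kb in the 135, so neither set matched the 33 in length. An H3K4me3 peak lay on 9 of the 33 (27.3%) in scr and on 9 in miR-93-5p, against 38.01% and 38.2% of coding genes under 10 kb. Among the 135 genes the shares were 32.6% and 28.9%.

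The Hoxc cluster held 2 of the named members, near Hoxc11 and at Hoxc9, and others around them. From the Hoxc13 to the Hoxc4 end (chr15:102751533-102867274, 116 kb) lay 10 members with 23.9 kb in all, between 698 and 6135 bp wide and with scores between 52.39 and 715.28. Shared peaks there numbered 2 and covered 7.47 kb, at Hoxc13 and Hoxc12, and scr H3K9me3 peaks numbered 2 with 3.22 kb. Of the 7 Hoxc genes listed, Hoxc13, Hoxc11, Hoxc9, Hoxc8, Hoxc6 and Hoxc4 carried a member, and 5 of these 6 had no scr H3K9me3 peak. Over the same cluster H3K27me3, the Polycomb mark of silent developmental genes, had 22 peaks with 37.0 kb in scr and 0 peaks in miR-93-5p. H3K4me3, a mark of active and poised promoters, had 5 peaks with 9.60 kb in scr and 4 with 13.5 kb in miR-93-5p. The cluster was picked out after its values were seen.

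The other Hox clusters did not share this pattern as a whole. Hoxa had 2 members with 3.41 kb beside 23.1 kb of shared peaks, and its scr H3K27me3 covered only 3.18 kb, with 0 peaks in miR-93-5p. Hoxb had 1 member with 1.63 kb, and its H3K27me3 went from 21.1 kb in scr to 3.19 kb in miR-93-5p. Hoxd had 3 members with 3.46 kb, at Hoxd8 and Hoxd9 among others, and 1.64 kb of H3K27me3 in scr against 1.37 kb in miR-93-5p. H3K27me3 was thus shorter in miR-93-5p in clusters with and without many members. Of the Hoxc genes Hoxc6 alone was measured by RNA-seq, at 1.20, 1.34 and 3.13 FPKM. Hoxd8, with 49.9% of its locus under a member, stood at 3.35, 5.61 and 4.15 FPKM. The deposited bounds of Hoxc6 in scr ran from 0 to 4.004 FPKM and held the values of the other libraries. Hoxd8 was higher in miR-93-5p, with bounds of 4.90 to 6.32 FPKM, than in mutant (3.65 to 4.65) and scr (2.84 to 3.87).

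**Figure D4:**
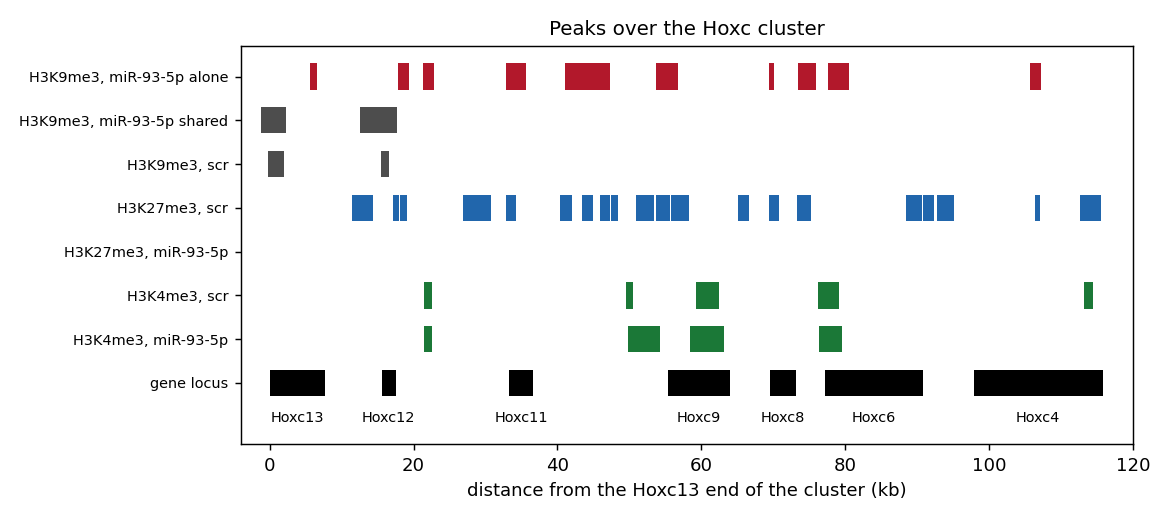
Peaks over the Hoxc cluster, drawn to scale by distance in kb from the Hoxc13 end, with 1 row for each mark and condition and the gene loci at the bottom. The 10 members lie across the cluster, where scr has 22 H3K27me3 peaks and miR-93-5p has 0.

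RNA levels were compared over 8411 coding genes that were matched to an assembled locus in all 3 RNA-seq libraries and had a mean of at least 1 FPKM. Of the 2466 genes with a member 970 (39.3%) passed this filter, against 45.5% of all coding genes and 46.6% of those without any miR-93-5p H3K9me3 peak. Genes under members were at lower levels, with medians of 9.17, 10.04 and 9.66 FPKM, where all measured genes had 15.6, 15.9 and 15.7. Genes with shared peaks and no member were low as well, at 11.8, 13.5 and 13.1 FPKM, so a low level was not particular to the members. The lower level was present in all 3 libraries. Of the 970 genes, 419 also carried a shared peak (scr median 9.14 FPKM) and 551 did not (scr median 9.32 FPKM). What sets the lower level was not tested. Within genes under 20 kb the miR-93-5p median was 6.76 FPKM under members and 22.6 with no H3K9me3 peak of that list. With shared peaks and no member it was 11.7 FPKM. In genes over 100 kb the miR-93-5p median was 9.34 under members and 8.50 without, and the scr median 7.82 and 8.58. The order in long genes thus differed between the libraries, and a gap as wide as in short genes was not seen. Members lay on an assembled RNA locus in 14.7% (scr), 14.1% (miR-93-5p) and 14.7% (mutant) of cases, and shared peaks in 20.6, 19.97 and 20.6%.

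The level of genes under members differed little between the libraries. Their median log2 ratio of miR-93-5p over scr, with 1 FPKM added to each value, was 0.10, where all measured genes had 0.03. Over mutant the medians were 0.07 and 0.01. Of the 970 genes 41 (4.23%) exceeded scr in miR-93-5p by 2-fold or more, where 2.97% of all measured genes did, and 41 (4.23%) fell short of it by 2-fold or more, where 3.85% did. In mutant over scr 29 of them were 2-fold or more above (background 2.63%) and 32 below (background 3.64%). By FPKM genes under members were thus as often higher as lower. The 141 measured genes with 3 or more members had a median locus of 203 kb and a median log2 ratio of 0.21. Of these, 9 were at least 2-fold higher and 7 lower by FPKM. By implied fragments, explained below, 26 of 135 were higher and 14 lower, where 7.54% and 7.68% of all measured genes were. Genes with shared peaks and no member had 0.12, so a small positive median was found there as well. Over 100 kb the median was 0.14 under members, 0.11 with shared peaks and no member, and 0.03 with no miR-93-5p H3K9me3 peak.

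**Figure D5:**
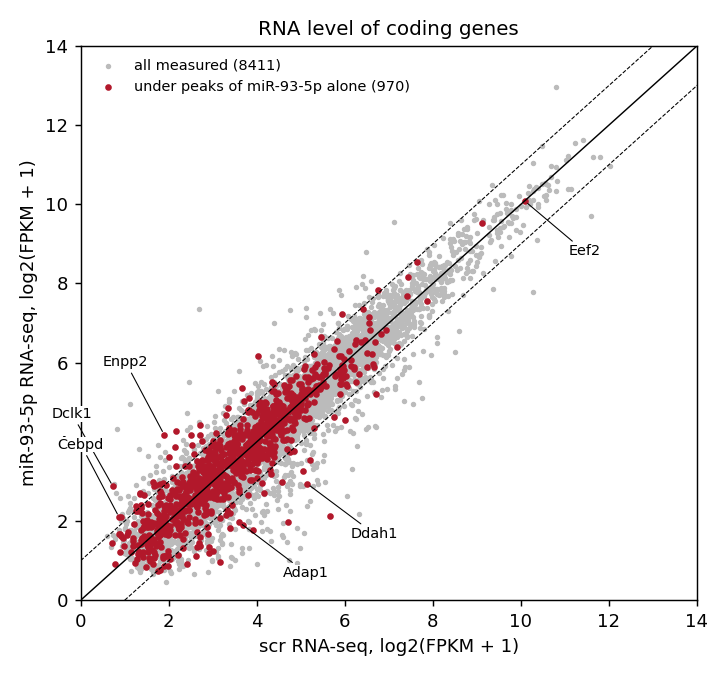
RNA level of coding genes in scr (horizontal axis) and miR-93-5p (vertical axis), both as log2(FPKM + 1), in grey for the 8411 genes measured and in red for the 970 under members. The solid line marks equal levels and the dashed lines a 2-fold difference, and 41 red genes lie beyond the dashed line on each side.

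Under members, 14 genes exceeded both other libraries by 2-fold or more in miR-93-5p (background over all measured genes 0.666%), and 9 fell short of both by as much (background 0.868%). FPKM depends on the transcript model, which was assembled separately in each library. A second measure, the number of fragments that would give the deposited error bounds, kept 4 of the 14 and 7 of the 9. The share of all measured genes that pass both measures is not given here. The 4 and the 7 are therefore examples and no result about the members. Over scr alone it gave 104 higher genes (background 7.54%) and 84 lower ones (background 7.68%) among the 920 genes under members that it covers. The 4 were Enpp2, Dclk1, Cebpd and Fam189a2, the last named after its values were seen. The 7 were Ddah1, Spats2l, Rbpms, Adap1, Ptpn13, Fermt1 and Fgd4.

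Enpp2, the secreted enzyme autotaxin that makes lysophosphatidic acid, had 17.4 kb under 11 members, 21.4% of its locus at chr15:54670452-54751701. It also held 6.14 kb of shared peaks. Its RNA stood at 2.72, 17.2 and 4.37 FPKM, a log2 ratio of 2.29 over scr. The deposited bounds, which cover counting within a library only, were 2.31 to 3.14, 15.96 to 18.4 and 3.81 to 4.94 FPKM. The miR-93-5p library was the high one by both measures, with a log2 ratio over scr of 2.16 by fragments, where Dclk1 had 2.68 and Cebpd 2.26. Dclk1, a microtubule-linked kinase at chr3:55046447-55342986 with 3 members and no shared peak, stood at 0.662, 6.34 and 1.37 FPKM (log2 ratio 2.14). Cebpd, a transcription factor gene at chr16:15887378-15888559 that lay whole under a member scoring 105.74, stood at 0.831, 3.28 and 0.733 FPKM (log2 ratio 1.23). Cebpd passed the filter of a mean of 1 FPKM only through the miR-93-5p library. Cebpd also lay whole under H3K4me3 peaks in both conditions, with 1182 bp each. Its bounds were 0.330 to 1.33, 2.60 to 3.96 and 0.326 to 1.14 FPKM. In these 3 genes the bounds of the miR-93-5p library lay above those of scr and mutant, and in Cebpd those of scr and mutant overlapped.

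Among the lower genes, Ddah1, which degrades inhibitors of nitric oxide synthesis, had 4.29 kb under 3 members in a locus of 136 kb. Its RNA stood at 34.4, 6.69 and 14.6 FPKM (log2 ratio -2.20). Adap1, a GTPase-activating protein, had 4.86 kb under 2 members, 9.04% of its locus, and no shared peak. It stood at 11.2, 2.91 and 13.4 FPKM (log2 ratio -1.64), and the bounds in miR-93-5p, 2.47 to 3.35 FPKM, lay below those in scr, 10.3 to 12.03 FPKM. Rbpms, an RNA-binding protein, stood at 35.9, 10.7 and 37.7 FPKM with 0.999 kb under a single member, and the phosphatase gene Ptpn13 at 6.49, 1.53 and 8.74 FPKM with 0.977 kb. In Spats2l, Fermt1 and Fgd4 members covered 0.649%, 2.34% and 0.0180% of the locus. The covered share was thus small in all 7 genes that both measures called lower, 9.04% at most.

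Genes under members could also be strongly transcribed. Eef2, a translation elongation factor, had 1.60 kb under a member (27.2% of its locus) and stood at 1091, 1080 and 1080 FPKM. Cstb, a protease inhibitor with 47.8% of its locus under a member, stood at 556, 737 and 595 FPKM. Neither had a shared or scr H3K9me3 peak. Sparc, a matrix protein, stood at 173, 283 and 208 FPKM, and Rtn4 at 171, 204 and 132 FPKM. Among the 33 genes covered to 50% or more the 5 measured were Cebpd, Epop, Fjx1, Slfn2 and Zfp959. Epop, a Polycomb partner, stood at 5.58, 2.002 and 2.73 FPKM, so both microRNA libraries were below scr. Slfn2, an immune cell gene, stood at 13.4, 8.79 and 4.48 FPKM, with mutant the lowest. Fjx1 (1.58, 1.70 and 1.46 FPKM) and Zfp959 (5.03, 5.34 and 5.16 FPKM) were nearly level, with overlapping bounds in the 3 libraries.

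The covered zinc finger genes were at low levels in all 3 libraries. The 57 measured ones had medians of 4.16, 3.88 and 4.26 FPKM, and the uncovered ones 6.01 FPKM in the miR-93-5p library. Of the 57, 3 were above scr in miR-93-5p by 2-fold or more (background 2.97%) and 1 was below (background 3.85%). Of the higher ones Zfp938 (9.12, 27.9 and 9.66 FPKM, log2 ratio 1.51) and Zfp865 (5.71, 15.1 and 3.08 FPKM, log2 ratio 1.27) turned direction by fragments, with log2 ratios over scr of -1.09 and -0.31. Zfp809 stood at 15.4, 8.59 and 14.1 FPKM, though by fragments its log2 ratio over scr was -0.15, and Zfp1 at 7.27, 7.50 and 7.07 FPKM.

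Marks that the rule did not use lay on a small share of the members. An H3K27me3 peak lay on 687 members (4.65%) in scr and on 590 (3.99%) in miR-93-5p, and 242 members had one in both. On shared peaks the shares were 5.21% and 3.28%. The length of members under H3K27me3 went from 570 kb in scr to 295 kb in miR-93-5p, which was 3.18% and 1.65% of their bases. Over the chromosomes H3K27me3 covered 2.27% in scr and 0.898% in miR-93-5p, so its share on members was above these. On shared peaks it went from 567 kb (2.66%) to 201 kb (0.946%). The whole H3K27me3 list went the same way, from 60.01 Mb to 23.7 Mb, with a median peak width of 1049 bp in scr and 473 bp in miR-93-5p. Of the scr H3K27me3 peaks on members 61.0% had no miR-93-5p H3K27me3 peak, and of all scr H3K27me3 peaks 66.0% had none. The Hoxc pattern was therefore not general to the members: scr H3K27me3 peaks were missing in miR-93-5p about as often on members as elsewhere. In the other direction, 61.0% of the miR-93-5p H3K27me3 peaks on members had no scr H3K27me3 peak. Of all miR-93-5p H3K27me3 peaks 55.1% had none, and of those on shared H3K9me3 peaks 51.9%.

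An H3K4me3 peak lay on 191 members (1.29%) in scr and on 198 (1.34%) in miR-93-5p, with 159 in both. On members at a gene locus the shares were 2.88% and 3.01%, and on intergenic members 0.514% and 0.524%. Members on genes and between genes were alike in width (median 1118 and 1073 bp) and in score (73.8 and 73.3). H3K4me3 on the members thus hardly differed between scr and miR-93-5p.

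The genes that write, erase and read H3K9 methylation were mostly near level by FPKM, but several were not by fragments. Of 10 measured methylase and partner genes, 8 demethylase genes and 13 reader genes, the median log2 ratios of miR-93-5p over scr were -0.07, -0.09 and -0.13. By FPKM none of the first 2 lists was past 2-fold, where 2.97% of all measured genes were higher and 3.85% lower. Among the readers 1 gene was lower by FPKM. Setdb1 stood at 17.3, 16.5 and 15.9 FPKM, and Suv39h1 at 31.9, 45.4 and 43.6 FPKM. Trim28, the corepressor of KRAB zinc finger proteins, stood at 135, 107 and 141 FPKM. Smarcad1, a chromatin remodeller that maintains silent chromatin, was the lower gene at 44.8, 15.2 and 35.5 FPKM, but by fragments its log2 ratio over scr was 0.34. Kdm7a, a demethylase, stood at 5.14, 9.98 and 7.02 FPKM. By fragments Trim28 (log2 ratio over scr 3.75), Kdm7a (1.58) and Kdm3b (1.13) were 2-fold or more higher. Hells (-1.85), Ehmt2 (-4.92) and Daxx (-5.74) were lower by 2-fold or more. Of all measured genes 7.54% were higher and 7.68% lower by fragments. Wide bounds give few implied fragments, as for Daxx in miR-93-5p (8.03 to 26.7 FPKM) and Trim28 in scr (110 to 159 FPKM). Members lay on the loci of Atf7ip (2.94 kb), Cdyl (2.65 kb) and Atrx (1.07 kb) of these lists.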

How the data were processed

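Peak lists of 6 chromatin libraries and 3 RNA-seq tables of LEPC cells were used, with 1 library per assay and condition. The input and pulldown measurements were not analysed here. CASAVA 1.4, Bowtie and MACS, and TopHat2, Cufflinks and Cuffdiff for RNA, are named on mm9 per the submitters' processing notes, with no settings. The score of each deposited peak was given by the authors without a unit and was not compared between libraries as signal. RNA values are deposited FPKM per assembled locus with lower and upper bounds, per the file headers. The depth of the libraries is not given in the files, so precision from depth is unknown.

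Peaks were compared by overlap of at least 1 bp. Gene loci in mm9 (35640) were those listed at 0 FPKM in a pulldown table, with symbols (31023 identifiers matched) and classes from reference gene tables, the classes by name from GRCm38.p6. A gene and an RNA locus were matched where each was the best overlap of the other and they shared at least 0.5 of their joint length. Ratios are log2 of FPKM plus 1. Implied fragments came from the width of the bounds, with ratios centred on a median of 1 and 10 added, with at least 3 per library. The named peaks were the 8 widest, the 8 highest-scoring and the 3 nearest each side of the threshold. The named genes were the 10 with the most bp and the 10 with the largest share under members, the 10 highest in miR-93-5p FPKM, up to 10 at least 2-fold above and below both other libraries, and up to 4 per gene list. Members, lists and rules were chosen with earlier results of these data known. Other overlap rules, score limits, pseudocounts, filters and matching shares were tried. Interval functions were tested on simulated data. Python 3.11.15, pandas 2.3.3, numpy 2.4.6, scipy 1.17.1 and matplotlib 3.10.9 were used.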

Additional observations from a re-analysis of the deposited data

How the results depend on the processing

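The number of members was 16356 when a peak counted as alone with less than 50% of its length under scr peaks and 13841 with scr peaks extended by 1000 bp, both within 1.5 times of 14785. It was 3813 for scores of at least 100 and 6931 for a list as long as that of scr, since fewer peaks then enter. In those 4 settings, in that order, the median width was 1130, 1087, 1558 and 1348 bp against 1086 bp, and the median distance to a shared peak was 41226, 38539, 40358 and 37956 bp against 35311 bp. The share on a gene locus stayed between 32.5 and 33.2% in them and was 31.8% by peak midpoint. The share of members on an H3K4me3 peak was higher for scores of at least 100, at 2.15% in scr and 2.07% in miR-93-5p.

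The median log2 ratio over scr of genes under members lay between 0.06 and 0.12 in every setting tried. The count of at least 2-fold higher genes (41) was 62 with a pseudocount of 0.1, 27 where locus and gene shared at least 0.9, and 104 by implied fragments, a measure added after the data were seen. The count of lower genes (41) was 54, 30 and 84 in the same settings. By fragments 7.54% of all measured genes were higher and 7.68% lower. The cause of these differences was not tested. Without a filter on low values both counts were 41. No paired analysis was possible because each condition had 1 library, and for the same reason no library could be left out. Peak width, score and number depend on depth, which is not given.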
